A study of Mus musculus with 133 samples.

Results

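The 37 genes described here carry out or control DNA replication and the passage of a cell from G1 into S phase. They were listed by known function and not by a measured value, but with earlier results of these data known. All 37 were read by a probeset of their own among 19938 genes with a name. RNA was measured on Affymetrix Mouse Gene ST arrays in whole mammary tumors of females whose mothers were Diversity Outbred mice and whose fathers carried the MMTV-PyMT transgene. All animals shared this transgene, in which the MMTV promoter directs the middle T oncogene of polyoma virus to mammary epithelium, so the tumors have 1 oncogenic driver. Diversity Outbred mice mix the genomes of several inbred strains, so each animal carried a background of its own. The tumors were untreated and were collected when the animals neared a humane endpoint. The labels give 1 biological group with neither genotype nor metastasis, so tumors were compared along gradients of expression. The whole tumors could hold stroma and immune cells besides epithelium, and fewer cells of a type and less RNA per cell cannot be told apart in them.

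The arrays used were 1 per animal, 48 titled with a running number and 79 titled with a name. Whether the title was numbered or named was handled like a batch, without knowing that it was one. A further 6 of the 133 arrays with the suffix r, which the labels do not explain, were left out. The median log2 level per array averaged 6.79 ± 0.033 on numbered and 6.58 ± 0.051 on named arrays (SD, n = 48 and 79), against 6.03 ± 0.087 on the suffix r arrays (SD, n = 6). Luminal epithelial markers were present in every tumor, with a mean log2 level of the 8 genes between 9.52 and 11.33. The arrays of animals 14095, 14094, 14312 and 14320 had the lowest mean correlation with the other arrays (0.921 to 0.933). Because the first pair also had the lowest levels of most replication genes, results that rest on them are given with and without them.

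Before S phase, the origin recognition complex, Cdc6 and Cdt1 load the ring of Mcm2 to Mcm7 onto DNA. Cdc45 and the GINS proteins then turn this ring into an active helicase, primase and polymerase alpha start each strand, and the clamp Pcna holds the later polymerases on the template. Cyclin E with its kinase releases E2F factors from the retinoblastoma protein, and E2F factors switch on many replication genes. Genes of mitosis such as Plk1, a mitotic kinase, and Bub1, a spindle checkpoint kinase, are transcribed later in the cycle, often through CHR and CCAAT elements in their promoters. In a tumor both groups are known to follow the share of dividing cells.

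The promoters of 4 members are shown because their products act at the first step of replication and each holds letters of the E2F motif. The motif was searched as TTTCCCGC, TTTCGCGC, TTTGCCGC and TTTGGCGC on both strands of the 250 bases before the start of each gene in RefSeq (assembly GRCm38.p6). Capitals mark the matches, and the lines run 5′ to 3′ toward the start of the gene on its own strand. The windows lie at chr8:75109259-75109508 on the plus strand for Mcm5, chr1:128359706-128359955 on the minus strand for Mcm6, chr4:108579204-108579453 on the plus strand for Orc1 and chr11:98907901-98908150 on the plus strand for Cdc6.
Mcm5: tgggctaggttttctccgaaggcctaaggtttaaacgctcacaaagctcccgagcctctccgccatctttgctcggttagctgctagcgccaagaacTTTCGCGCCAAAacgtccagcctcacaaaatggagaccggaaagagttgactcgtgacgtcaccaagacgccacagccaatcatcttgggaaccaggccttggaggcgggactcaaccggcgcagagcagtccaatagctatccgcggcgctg
Mcm6: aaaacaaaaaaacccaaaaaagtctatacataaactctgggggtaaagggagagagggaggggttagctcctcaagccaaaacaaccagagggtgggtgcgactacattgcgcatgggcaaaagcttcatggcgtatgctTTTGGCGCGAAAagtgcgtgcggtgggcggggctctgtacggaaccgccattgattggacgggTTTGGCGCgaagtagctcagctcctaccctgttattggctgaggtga
Orc1: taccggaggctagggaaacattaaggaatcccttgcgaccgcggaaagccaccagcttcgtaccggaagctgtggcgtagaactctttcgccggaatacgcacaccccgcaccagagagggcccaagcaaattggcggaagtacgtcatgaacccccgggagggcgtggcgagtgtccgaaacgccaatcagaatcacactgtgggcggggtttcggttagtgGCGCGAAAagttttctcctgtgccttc
Cdc6: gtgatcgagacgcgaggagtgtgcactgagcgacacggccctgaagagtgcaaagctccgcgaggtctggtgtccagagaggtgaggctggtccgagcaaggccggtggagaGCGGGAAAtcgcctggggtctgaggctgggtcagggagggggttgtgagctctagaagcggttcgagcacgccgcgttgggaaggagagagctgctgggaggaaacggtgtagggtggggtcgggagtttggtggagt

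In Mcm5, 2 overlapping matches lay between 149 and 153 bases before the start. Mcm6 held 3 matches between 47 and 110 bases before the start, 2 of them overlapping. Orc1 held 1 match at 27 bases and Cdc6 1 match at 138 bases. Of the 30 members with an entry in the table, 9 (30%) held the E2F letters, namely Mcm5, Mcm6, Mcm7, Orc1, Cdc6, Gins3, Rfc3, Pola1 and Uhrf1. The letters stood in 5.56% of 36 mitotic promoters and in 2.88% of the 15614 promoters of measured genes. The CHR letters (TTTGAA or TTCGAA) stood in 20% of member, 36.1% of mitotic and 17.3% of all promoters, and CCAAT in 60%, 69.4% and 38.8%. These are matches of letters in a window and no measurement of binding.

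The MCM helicase genes all varied with the same few tumors at the low end. Mcm6 had a lowest log2 level of 5.74, a median of 8.65 and a highest level of 9.50 over the tumors. Mcm5 had a lowest level of 7.09, a median of 9.45 and a highest of 10.35, and Mcm2 had 7.85, 8.84 and 9.74. Mcm3, Mcm4 and Mcm7 had medians of 7.78, 8.01 and 9.48. Animal 14095 held the lowest value of all 6 genes. After centring within the title series, the SD over tumors was between 0.33 for Mcm3 and 0.45 for Mcm6. The 15 pairs of MCM genes had a mean r of 0.760, against 0.681 with the other members and 0.707 with the mitotic genes.

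Among the genes that load and fire origins, Gins1, a GINS subunit, had the widest spread and Gins2, its partner, the narrowest of all members. Gins1 had a lowest level of 5.08, a median of 6.70 and a highest of 7.94 (SD 0.43). Gins2 had 6.38, 7.53 and 7.99 (SD 0.22), which was level with the median SD of all genes. Gins3, another GINS subunit, had 5.74, 6.68 and 7.59. The loading factors Cdc6 and Cdt1 had medians of 6.95 and 8.18, the recognition complex subunits Orc1 and Orc6 had 5.47 and 7.48, and the firing factors Mcm10 and Cdc45 had 7.15 and 7.20. The 36 pairs of this role had a mean r of 0.60, below their 0.621 with other members and their 0.637 with mitotic genes.

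Pcna, the clamp, and 3 subunits of its loader, Rfc2, Rfc3 and Rfc5, had smaller SDs than any MCM gene, while Rfc4 had a larger SD than all of them but Mcm6. Pcna had a lowest level of 9.83, a median of 10.80 and a highest of 11.39 (SD 0.24), and its other probeset followed it with r = 0.982. Rfc4, a clamp loader subunit, had 7.63, 9.11 and 10.46 (SD 0.39). Rfc5, a further subunit of the same loader, had 8.51, 9.71 and 10.46 (SD 0.30), and Rfc2 and Rfc3 had medians of 7.89 and 8.10. Subunits of 1 loader were thus not equally variable, and the mean r over the 10 pairs was 0.524, the lowest of the 8 roles.

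For the polymerases, Prim1, the catalytic primase subunit, had a lowest level of 6.17, a median of 7.42 and a highest of 8.32 (SD 0.37), and its partner Prim2 had 6.84, 8.39 and 8.97. Pole, the catalytic subunit of polymerase epsilon, had 5.74, 7.44 and 8.22. Pold1, the catalytic subunit of polymerase delta, had 6.40, 7.34 and 8.54 and the fourth lowest SD of all members at 0.23. Its lowest tumor was animal 14352, not the pair that was lowest in most members. Pola1 and Pola2, subunits of polymerase alpha, had medians of 7.35 and 7.85. Pola1 and Pold1 had the weakest relation of any member pair, with r = 0.0726.

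Genes of nucleotide supply and chromatin assembly included the member of widest range, Rrm2. Rrm2, the regulated subunit of ribonucleotide reductase, had a lowest level of 6.23, a median of 9.37 and a highest of 10.54, and its SD was 0.52. Rrm1, the large subunit, had 8.26, 10.14 and 10.64 (SD 0.34), and Tyms, which makes thymidylate, had 7.32, 8.55 and 9.54. Uhrf1, which brings the maintenance methyltransferase to new DNA, had 5.75, 7.99 and 8.88 (SD 0.40). Chaf1b, a subunit of chromatin assembly factor 1, had 6.49, 8.38 and 9.13 (SD 0.39), and Chaf1a had a median of 7.53. The 3 chromatin genes had a mean r of 0.781, the highest of the roles.

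Flap removal and joining of lagging strand fragments were read by Fen1, a flap nuclease, and Lig1, a DNA ligase, whose medians were 7.20 and 8.15. The G1/S regulators Ccne1 and Ccne2, which encode cyclin E, had a lowest level of 6.38, a median of 7.79 and a highest of 9.01, and 5.06, 6.30 and 7.53. E2f1, an activating E2F factor, had 6.73, 7.46 and 8.19 (SD 0.24), an SD below the median of the members.

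**Figure D1:**
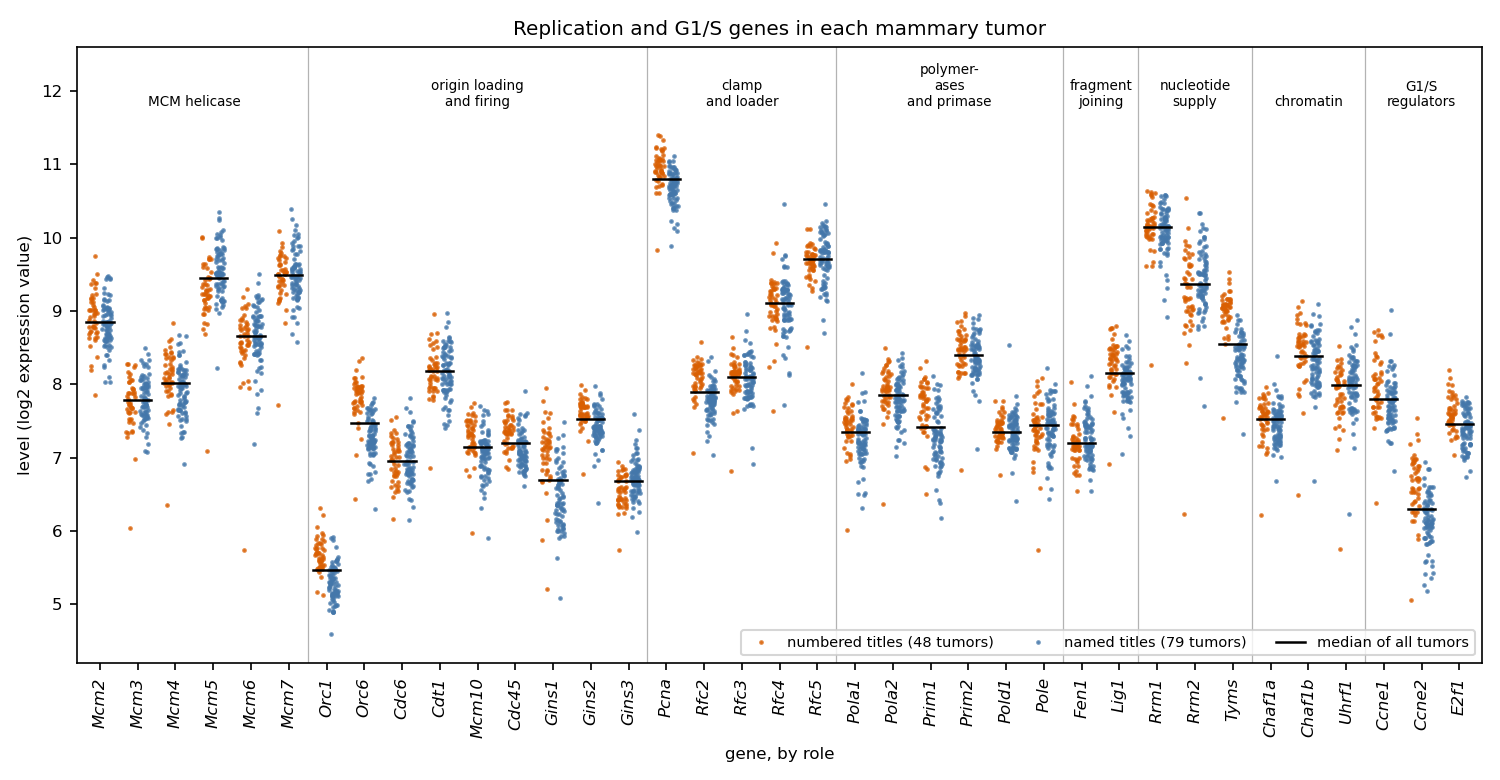
Log2 expression level (vertical axis) of each of the 37 replication genes, grouped by role along the horizontal axis, with 1 point per tumor, 48 numbered beside 79 named titles and a bar at the median of all tumors. Rrm2 has the widest spread of the members, and a single tumor lies far below the rest in many columns.

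The members varied more between tumors than most genes. Their median SD was 0.31 log2 units, between the median of 0.42 for 44 mitotic genes and that of 0.22 for all genes, and 36 of 37 lay above the median of all genes. Plk1 had a lowest level of 5.74, a median of 9.35 and a highest of 10.24 (SD 0.54), and Bub1 had 4.70, 7.88 and 8.85 (SD 0.54), so both spread more than any member. Without animals 14095 and 14094 the median SD of the members was 0.27, against 0.21 for all genes.

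Animal 14095 had the lowest level in 24 members and animal 14094 in 11. After centring within the title series these counts were 30 and 5. The mean level over the 37 members was 6.66 in animal 14095 and 6.95 in animal 14094, against a median of 8.02 over the tumors. In animal 14094 the mean level of the B cell markers was 8.64, against a median of 5.07 over all tumors, and that of the T and NK cell markers was 7.62, against 5.57. Its luminal markers had the lowest mean of all tumors, 9.52, against a median of 10.85. Animal 14095 had the lowest mean of the milk genes, 5.78, against a median of 9.36. The part of these markers in the low replication levels was not tested.

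All 666 pairs of members had a positive correlation across tumors after centring within the title series. The mean r was 0.633, against 0.760 among mitotic genes and 0.0354 among all genes, and it was 0.757 in numbered and 0.560 in named titles. It was 0.544 without the 2 lowest arrays. Mcm2 and Mcm5 were the closest pair at 0.885, followed by Cdt1 and Pola2 at 0.880 and by Mcm5 and Pola2 at 0.866. Pairs that share a role had a mean r of 0.623, against 0.634 for pairs of different roles over all roles. The relation differed by role, since it was closer within than outside for the MCM ring (0.760 and 0.681) and the chromatin genes (0.781 and 0.683), and weaker within for the clamp and loader (0.524 and 0.585). Correlations across tumors share libraries and cell composition and are given as a description.

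Members differed in how closely they followed the mean of the other 36. Mcm5 (r = 0.915), Chaf1b (0.900), Uhrf1 (0.899), Mcm3 (0.897), Mcm10 (0.891) and Pole (0.890) were closest. The weakest were Pold1 (0.495), Rfc5 (0.585), Cdc6 (0.660), E2f1 (0.665), Gins2 (0.692) and Rfc2 (0.695). For Rfc5 the value was 0.879 in numbered and 0.450 in named titles, so its place near the bottom came from the named arrays.

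**Figure D2:**
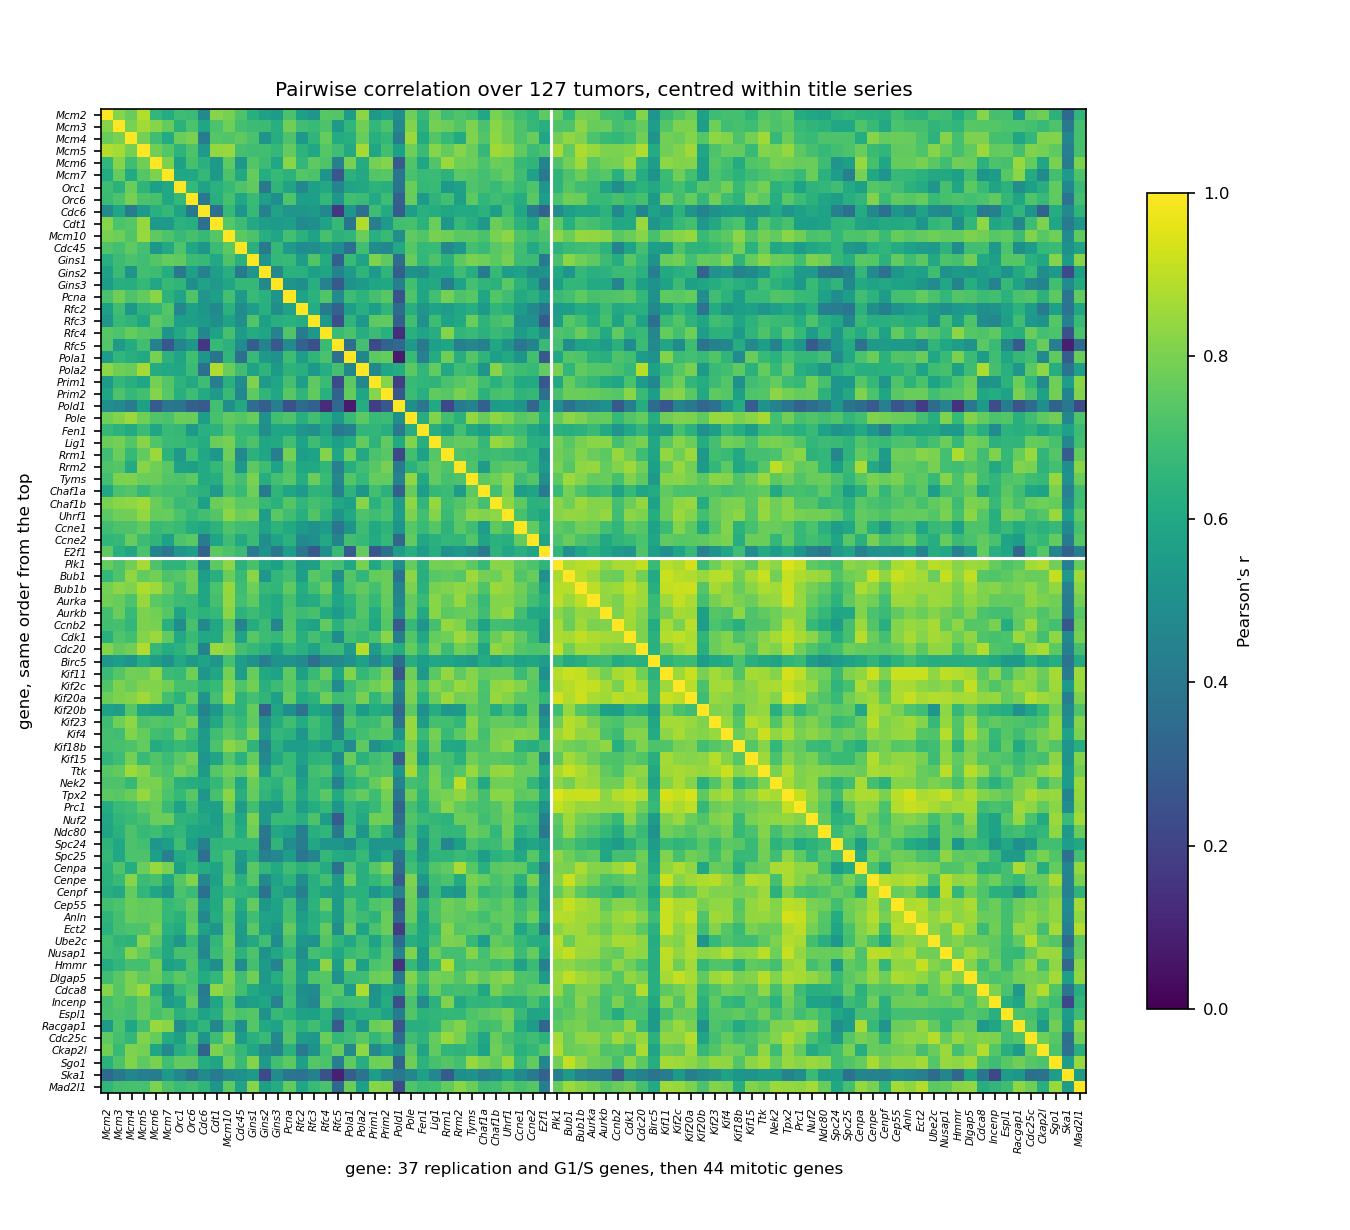
Pearson r across tumors, centred within the title series, for the 37 replication genes followed by 44 mitotic genes on both axes, with color from 0 (dark) to 1 (bright) and white lines between the lists. All member pairs are positive, and the block of mitotic genes is brighter (mean 0.760) than the block of members (mean 0.633).

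Each tumor was then given a replication score and a mitotic score, the mean of the centred and standardized levels of the members and of the mitotic genes, scaled to an SD of 1. The scores had a Pearson r of 0.943 (95% interval 0.920 to 0.960) and a Spearman rho of 0.906. The Pearson r was 0.962 in numbered and 0.927 in named titles, and 0.923 without the 2 tumors farthest from the median. The replication score was -5.32 in animal 14095, -3.78 in animal 14094 and -2.03 in the next lowest tumor, against a highest score of 2.09 in animal 14001. The mean member z minus the mean mitotic z had an SD of 0.29, against 0.80 for the members and 0.88 for the mitotic genes alone. This difference was lowest in animal 14356 at -0.79 and highest in animal 14094 at 1.23, and without the 2 low tumors its highest value was 0.49 in animal 14001.

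**Figure D3:**
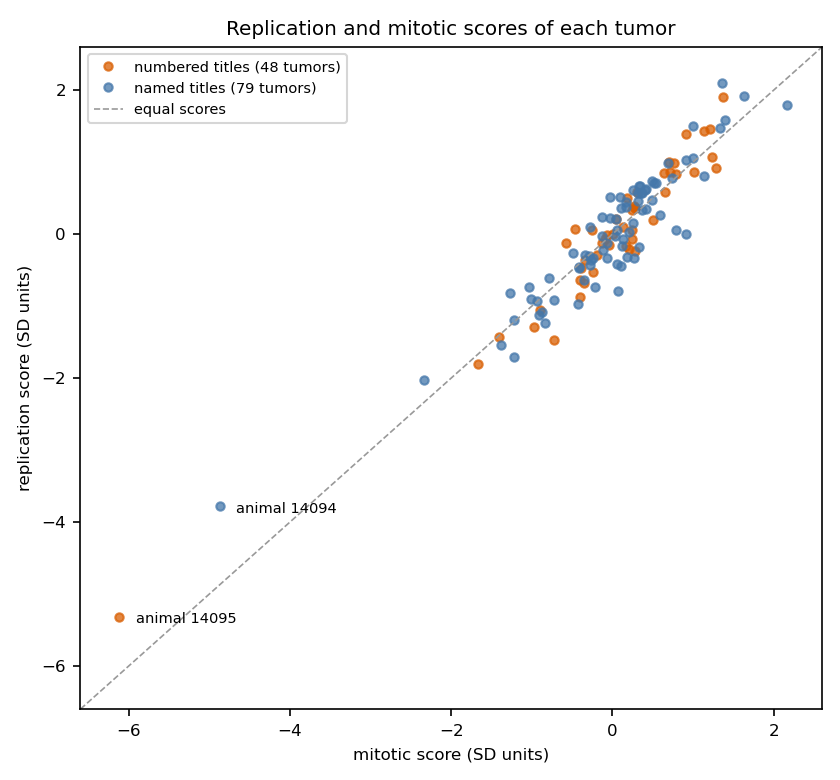
Replication score (vertical) against mitotic score (horizontal), both in SD units, with 1 point for each of 48 numbered and 79 named tumors and a dashed line of equal scores. The points follow the line (r = 0.943), and animals 14095 and 14094 lie far below the rest on both scores.

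The gene of highest r was sought over both lists, in which mitotic genes outnumber members, 44 to 37. Mitotic genes also had the higher mean r among themselves, 0.760 against 0.633. Counts of such nearest genes thus do not rank how far each list stands apart. For 16 of 37 members the gene of highest r among the other members and the mitotic genes was a member, while for 42 of 44 mitotic genes it was mitotic. The exceptions were Nek2, a centrosome kinase, closest to Rrm2 (r = 0.902), and Espl1, which encodes separase, closest to Uhrf1 (0.797). With a gene left out of the mean of its own list, 33 of 37 members had a higher r with the other members than with the mitotic score, and the exceptions were Pola1, Ccne2, Rfc5 and Rrm1. Of the mitotic genes, 40 of 44 had a higher r with their own list. Cutting all 81 genes into 2 clusters set Pold1 alone apart from the rest, so this cut does not show whether replication divides from mitosis.

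In a limma fit of each gene on the mitotic score with the title series as a term, all 37 members rose with the mitotic score, against 17.8% of 19894 genes that rose and 13.6% that fell. The slope per SD of the score had a median of 0.24 log2 units over the members and of -0.00 over all genes. Rrm2 had the steepest slope at 0.43 (SE 0.03, limma adjusted p = 3.41e-31). Mcm6 followed at 0.37, Gins1 and Uhrf1 at 0.35, Mcm5 and Chaf1b at 0.33. Pold1 had the shallowest slope at 0.10 (SE 0.02, limma adjusted p = 3.14e-06), next to Gins2 at 0.13, Rfc2 at 0.14, E2f1 at 0.15, Cdc45 and Gins3 at 0.16. Fits without the 2 or the 4 lowest arrays also called all 37. The shares of all genes called in those fits are not given here.

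The other genes of the same pathway were mostly called in the same direction. All 24 measured S phase genes outside the members rose with the mitotic score. Of 28 further replication, licensing and G1/S genes, 21 rose and 0 fell, against the 17.8% and 13.6% above. Among these were Mtbp and Topbp1, which help fire origins, with slopes of 0.26 and 0.22, E2f3 with 0.25, Mcm8, a relative of the MCM ring, with 0.21 and Rbl1, a relative of the retinoblastoma protein, with 0.21. Rb1 itself had a slope of 0.02, and it did not pass the test. Neither did Orc3, Orc4, Pole4, Rnaseh2b and the cyclin kinase inhibitors Cdkn1b and Cdkn2a.

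To ask how far the members separate from mitosis, each gene was fitted on an S phase score and the mitotic score together, with the title series. The S phase score is the standardized mean of 24 genes outside the members, such as Gins4, Pole2, Clspn, Timeless, Dnmt1 and Tk1, and it had r = 0.911 with the mitotic score. At a given mitotic score, 26 of 37 members rose with the S phase score and 1 fell, against 23.8% and 12.2% of 19870 genes. At a given S phase score, 19 members rose with the mitotic score and 0 fell, against 13.6% and 21.8%. The median partial slope was 0.14 on the S phase score and 0.10 on the mitotic score, against 0.02 and -0.02 over all genes. Of the 37 members, 10 rose with both scores, 16 with the S phase score alone, 9 with the mitotic score alone, Rfc5 among them, and 2, Gins2 and Pold1, with neither.

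Prim1 and Gins1 had the steepest slopes on the S phase side. Prim1 had a partial S phase slope of 0.40 (SE 0.04, limma adjusted p = 3.80e-14) beside a mitotic one of -0.09 (SE 0.04, limma adjusted p = 0.0781). Gins1 had 0.39 (SE 0.04, limma adjusted p = 1.31e-12) beside -0.00. Mcm7 had 0.31 beside -0.02, Cdc6 had 0.26 beside -0.05, Mcm6 had 0.23 beside 0.16 and Rfc3 had 0.22 beside 0.00. Their partners had shallower S phase slopes, 0.18 for Prim2, 0.18 for Gins3 and 0.06 for Gins2, the last of which did not pass. The mitotic slope of Mcm6 was -0.01 without the 2 lowest arrays and -0.08 without the 4 lowest, where its S phase slope was 0.36. In the MCM ring, Mcm3 and Mcm7 passed the S phase test alone, Mcm2 and Mcm5 the mitotic test alone, and Mcm4 and Mcm6 both. Differences between genes were not tested. Mcm2 had an S phase slope of 0.31 and a mitotic slope of -0.00 in numbered titles.

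Rfc5 led the mitotic side with a partial mitotic slope of 0.41 (SE 0.05, limma adjusted p = 1.31e-11), and it was the member that fell with the S phase score, with a slope of -0.25 (SE 0.05, limma adjusted p = 2.21e-05). Mcm5 had a mitotic slope of 0.29 beside an S phase slope of 0.05, Rrm2 had 0.27 beside 0.17, Rfc4 had 0.25 beside 0.04 and Rrm1 had 0.25 beside 0.03. Without the 2 lowest arrays the mitotic slope of Rrm2 was 0.14 (limma adjusted p = 0.0789), and it was 0.13 without the 4 lowest (limma adjusted p = 0.142). Uhrf1 had 0.24 beside 0.12 and passed both tests. Without the 2 and the 4 lowest arrays its mitotic slope was 0.11 and 0.13 and that of Rrm1 was 0.17 and 0.09, and without the 4 that of Mcm5 was 0.16, with all of these past the threshold. Mcm10 had 0.23 beside 0.03, and Cdt1 had 0.20 beside 0.04. The fall of Rfc5 was not seen in the numbered titles, where its S phase slope was 0.04 (limma adjusted p = 0.719), against -0.36 in the named titles.

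Few of these assignments held under every setting tried. Mcm7, Orc1, Gins1, Prim1 and Ccne1 passed the S phase test in the fit above and all alternatives, where their slopes were at least 0.11. For Orc1 this covers 13 of the 14 alternatives, since a filter on low levels removed it. Mcm5, Mcm10, Rfc5, Rrm1 and Uhrf1 passed the mitotic test throughout, with slopes of at least 0.09. The number that passed both tests was 4 without the 2 lowest arrays and 3 without the 4 lowest, against 10 with them. In these fits 24 and 22 of the 26 members still passed the S phase test and 14 of the 19 the mitotic test. Of all genes, 22.8% and 15.8% rose with the S phase score in them, against 23.8% with all arrays. With the mitotic score 8.5% and 10.4% rose, against 13.6%. Without the 2 lowest arrays the S phase call was lost by Ccne2 (0.07) and Cdc45 (0.03), and the mitotic call by Chaf1b (0.10), Orc6 (0.08), Tyms (0.06), Mcm6 and Rrm2. Gins2 gained an S phase call, with a slope of 0.11 without the 2 lowest (limma adjusted p = 0.00736) and 0.16 without the 4 lowest arrays, against 0.06 with them. Cdc45 gained a mitotic call in both fits, with slopes of 0.14 and 0.16. Without the 2 lowest, E2f1 fell with the S phase score besides Rfc5 (-0.10, limma adjusted p = 0.0475). Rfc3 then fell with the mitotic score (-0.11, limma adjusted p = 0.0285). Without the 4 lowest, Mcm7 fell with the mitotic score (-0.11, limma adjusted p = 0.0483). There Rrm1 gained an S phase call (0.12) and Pold1 a mitotic call (0.14).

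**Figure D4:**
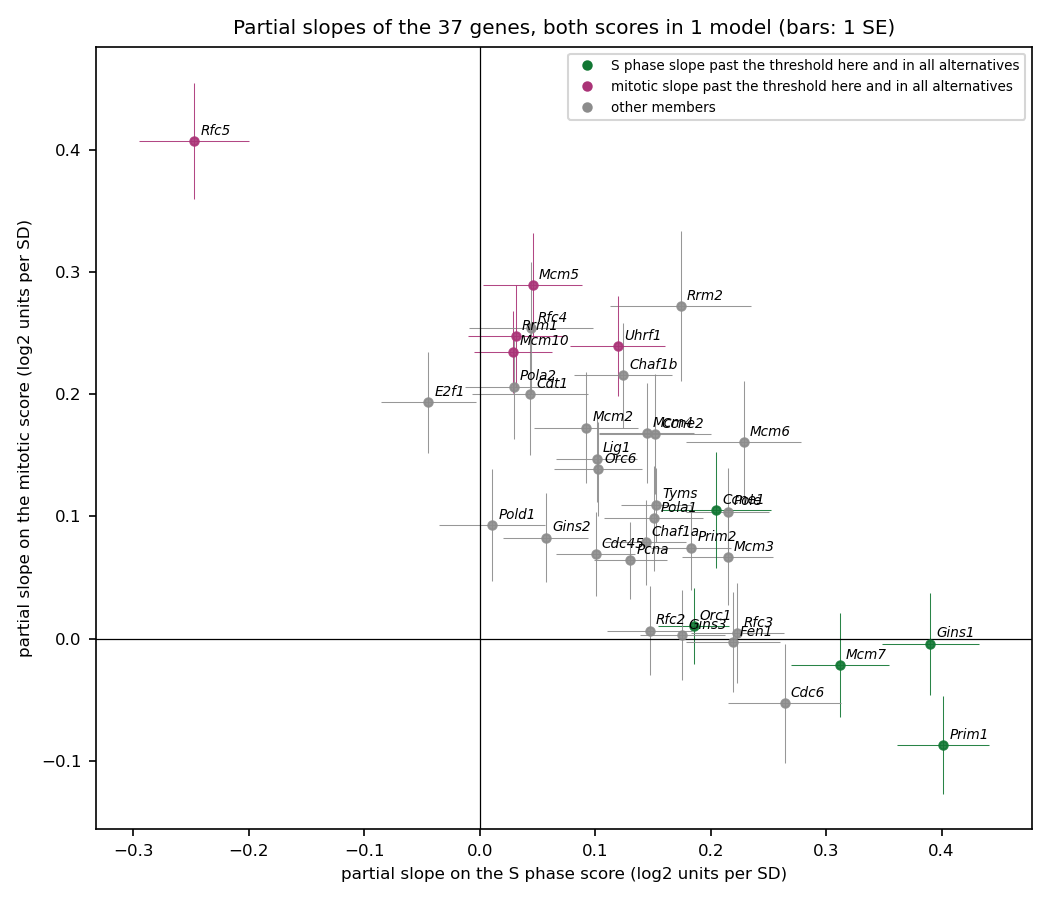
Partial slope on the S phase score (horizontal) and on the mitotic score (vertical) of each of the 37 members in log2 units per SD of the score, with bars of 1 SE and colors for members that passed 1 of the tests under all alternatives. Prim1 and Gins1 lie far right, at -0.09 and -0.00 on the vertical axis, and Rfc5 lies at upper left (-0.25 and 0.41).

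In a principal component analysis of the 37 members and 44 mitotic genes, the first and second components did not divide the lists. The third, which held 3.73% of the variance, was not examined. The first component held 69.7% of the variance. The second held 4.69%, and 20 of 37 members and 19 of 44 mitotic genes lay on its positive side. At its high end were the members E2f1, Rfc5, Pold1, Cdt1, Pola2, Mcm2 and Cdc45 with the mitotic genes Ckap2l, Cdca8 and Cdc20. At its low end were Prim1, Pola1, Prim2, Cdc6, Rfc3, Mcm6 and Mcm7 with Racgap1, Mad2l1 and Nuf2. Subunits of polymerase alpha and primase thus stood at both ends. The ends were chosen by these values, so the following correlations describe them without a test.

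Over the 7 members at each end, the mean r was 0.674 within the high end, 0.712 within the low end and 0.420 between them. In named titles the values were 0.658, 0.683 and 0.284, and in numbered titles they were 0.727, 0.768 and 0.680. The loadings of a component computed in named titles alone had r = 0.991 with those of all tumors, against 0.385 for numbered titles alone. The lowest tumor on it was animal 14050 (-3.36), and animal 14352 (-2.41) was the fifth lowest. Both are the animals that also have a suffix r array, and without them the loadings had r = 0.950 with those of all tumors.

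The second component was shared by many genes outside all lists. Of 19719 genes outside all lists, 798 (4.05%) had r above 0.5 with it and 690 (3.50%) below -0.5. Of the members, which entered the component, 3 of 37 (8.11%) were above 0.5 and 0 below -0.5. Map2k2, a MAP kinase kinase, had r = 0.892 and Fkbp8 0.858, and Fbxl5, an iron-regulated F-box protein, had -0.852 and Wtap, a part of the RNA methylation complex, -0.836. In the same order, the values in numbered titles were 0.750, 0.303, -0.575 and -0.605. In named titles they were 0.905, 0.920, -0.882 and -0.873. These genes were chosen after their values were seen. Its r with the array median was -0.158 in numbered and 0.322 in named titles, and its r with the luminal marker score was 0.275, or 0.442 without the 4 lowest arrays. The part of either in the component was not tested. Components 2 to 6 of the genes outside all lists were then added as terms, a choice made after the data were seen. In this fit 31 members rose with the S phase score and 14 with the mitotic score, against 17.9% and 12.3% of all genes. Most genes behind these shares formed the components and the members did not, so the counts and shares are not on equal terms. Component 1 was not a term, and its absolute r was 0.587 with the replication and 0.643 with the mitotic score. Of the earlier calls 24 of 26 and 12 of 19 were kept. The 7 members that gained an S phase call were Mcm2 (slope 0.25), Cdt1 (0.31), Pold1 (0.19), E2f1 (0.13) and Pola2 from the high end, and Gins2 (0.16) and Mcm5, which are not end genes. Pold1 fell with the mitotic score in this fit, with a slope of -0.11 (limma adjusted p = 0.0212), and the S phase slope of Rfc5 was -0.08 (limma adjusted p = 0.190).

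**Figure D5:**
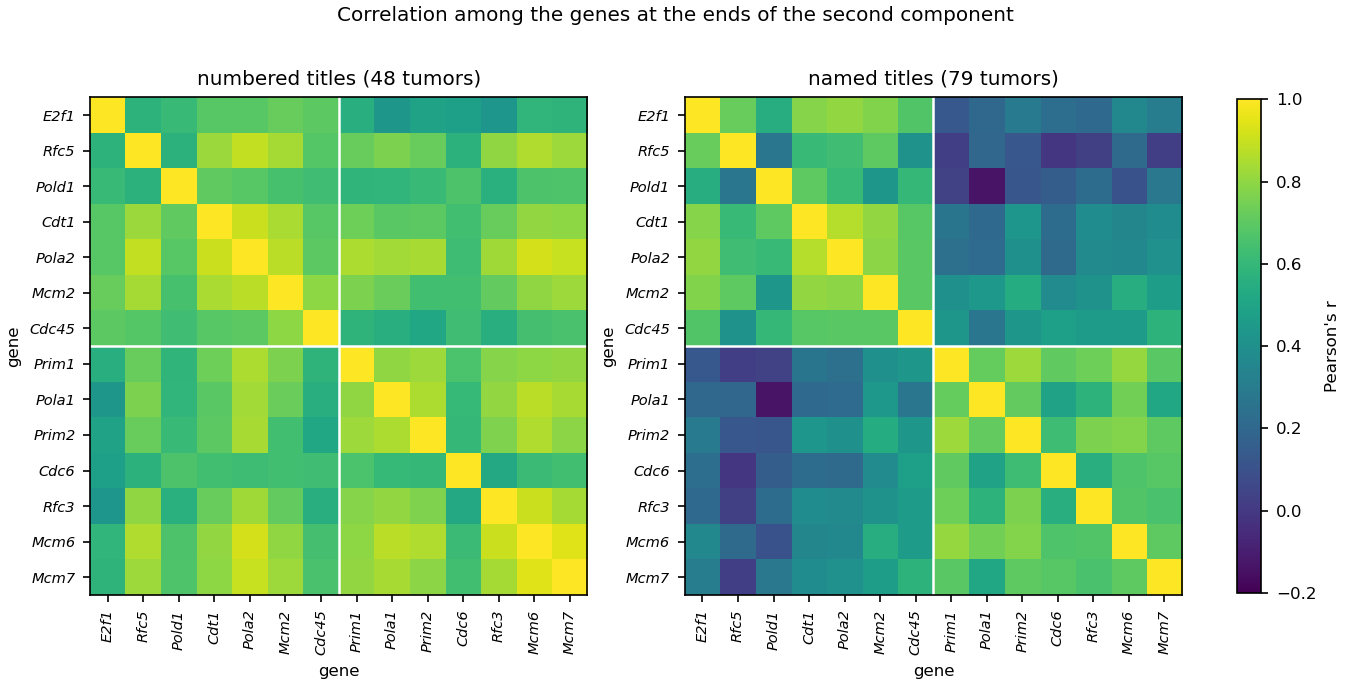
Pearson r (color) between the 7 members at the high end and the 7 at the low end of the second component on both axes, for 48 numbered titles at left and 79 named titles at right, with white lines between the ends. The blocks between the ends are darker in named titles, with a mean r of 0.680 in numbered and 0.284 in named titles.

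The slope on the mitotic score was compared between the title series by an interaction term. It passed in 0 of 37 members (limma, lowest adjusted p = 0.167, with 6 members at an unadjusted p under 0.05), against 0.588% of all genes. Fits with quantile normalization or robust variances also gave 0, with 5 and 6 members at an unadjusted p under 0.05. For these fits, too, the shares of all genes are not given.

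Levels of many members differed between the series, with a smaller share higher in numbered titles than among all genes. In numbered minus named titles 18 members were higher and 3 lower, against 69.6% and 5.72% of all genes, and the median difference was 0.10 log2 units, against 0.18 over all genes. After quantile normalization, which moved the median of all genes to -0.01, 7 members were higher and 18 lower. The share of all genes called in that fit is not given here. Tyms (0.66, then 0.46), Gins1 (0.58, then 0.36), Orc6 (0.53, then 0.32) and Ccne2 (0.50, then 0.29) were higher under both scalings, as were Orc1, Prim1 and Rfc2. Mcm5 (-0.30, then -0.49), Gins3 (-0.18, then -0.39) and Uhrf1 (-0.16, then -0.37) were lower under both. What the title series stands for is not given in the labels.

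Markers of other cells followed the replication score weakly. The T and NK cell score had r = -0.370 with it, and -0.294 without the 4 lowest arrays. The B cell score had -0.249, and -0.0582 without them. The luminal score had 0.272, and -0.0113 without them, while the fibroblast score had -0.149 and -0.301 and the endothelial score -0.256 and -0.257. The 4 measured housekeeping genes had a closer relation, with r = 0.518, or 0.602 without the 4 arrays. Their r was 0.804 in numbered and 0.392 in named titles. The array median had r = 0.00538, or -0.211 without the 4 arrays. The mean correlation of an array with the others had r = 0.354 with the replication score, 0.583 in numbered and 0.224 in named titles, and 0.00291 without the 4 lowest arrays. With the luminal score and the array median as terms of the fit, all 37 members rose with the mitotic score. The share of all genes in this fit is not given here. Both terms had a weak relation with the replication score, so adding them could hardly change the calls. The part of these terms and of the marker lists was not tested.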

How the data were processed

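The deposited values are log2 levels per probeset after RMA by the authors, a method that corrects background, aligns arrays by quantiles and summarizes probes. Median levels differed between numbered, named and suffix r arrays (6.79, 6.58 and 6.03), so a joint alignment of all arrays cannot be assumed. The submitters' processing notes name RMA alone. Its version and the build were not given in the sources used here. Of 35556 probesets, 21789 had 1 gene symbol in the platform annotation, 1621 several and 12146 none. A gene was read by its single-gene probeset of highest mean, and Pcna was the member with 2 such probesets. Correlations used values centred within numbered and named titles, and models had a title series term. Slopes were tested with limma 3.58.1 (lmFit, eBayes with trend, R 4.3.3), 2-sided, with p-values adjusted over all tested genes (Benjamini-Hochberg) and a threshold of 0.05. Genes that form a score were left out of its test. The limma step was tested on simulated data, and correlations were computed in Python 3.11.15 with numpy 2.4.6, pandas 2.3.3 and scipy 1.17.1. Arrays have no read depth, so their number limits the precision. The p-values measure the spread between animals of 1 cross.

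The members and lists were chosen with earlier results of these data known. Besides all members, genes were named by rule as the highest and lowest 6 by SD, by r with the other members and by each slope, and outside the lists as those most like or opposed to the replication score. Alternatives were another scaling, other sets of arrays, probesets, terms and filters. The fits without the 2 lowest arrays, without the 2 animals with a repeat array and with added components were chosen after seeing the data.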

Additional observations from a re-analysis of the deposited data

How the results depend on the processing

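No paired analysis was possible because the labels give 1 group, whose replicate numbers follow accession order only. Of 83 alternative values of 9 counts and descriptions, 75 stayed within 1.5 times the count or within the spread, and 8 moved. With numbered titles only, 10 members rose with the S phase score and 9 with the mitotic score, against 4.33% and 4.77% of all genes. With all arrays those shares were 23.8% and 13.6%, beside 26 and 19 members. In numbered titles the replication and mitotic scores had r = 0.962. With Spearman's rho the scores had 0.906. After quantile normalization 7 members were higher and 18 lower in numbered titles, and the same counts, 7 and 18, came with each array's median subtracted. The shares of all genes in these fits are not given here. Of 1234 alternative values of the 83 slopes of members that passed a test, 1144 kept their call, 81 lost it and 9 changed sign. The 83 include the slopes of all 37 members on the mitotic score alone, which kept their call in every alternative. Every loss and change of sign thus fell among the partial slopes, which were less stable than the pooled count. The S phase slope changed sign without the title series term for Gins3 (-0.0243), Rrm2 (-0.115) and Uhrf1 (-0.121, past the threshold downward), and with numbered titles only for Rfc5 (0.0362). The mitotic slope changed sign for Mcm2 with numbered titles only (-0.00115), for Mcm6 without the 4 (-0.0784) and without the 2 (-0.0142) lowest arrays, for Cdt1 with components as terms (-0.0504) and for Tyms without the title series term (-0.0549). The cause was not tested, and the fit on numbered titles used 48 arrays. The S phase and mitotic scores had r = 0.911, which limits how well the 2 partial slopes of a gene can be told apart, and no measure of RNA quality was used here.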

Other observations

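Outside all lists, the genes most like the replication score were themselves mostly known from the cell cycle. They were led by Cenpn, a centromere protein (r = 0.927), Ccnf, which encodes cyclin F (0.914), Cdca2 (0.906), Ncaph, a condensin subunit (0.905), and Dtl, which guides the destruction of Cdt1 (0.902). Ticrr, which helps fire origins, had 0.890 and Skp2, which marks Cdkn1b for destruction, 0.884. The opposed genes were Crebl2 (-0.752), the long noncoding RNA gene Lncpint (-0.665), Pam (-0.651), St3gal1 (-0.650) and Bsnd (-0.641), with Tef (-0.639), Per3 (-0.637) and Usp2 (-0.629), which are known as clock or clock-controlled genes. Without the 4 lowest arrays these 8 genes had between -0.652 (Lncpint) and -0.348 (Bsnd), with -0.407 for Usp2 and -0.445 for Per3. The genes whose r with the replication score most exceeded that with the mitotic score had weaker relations, such as Eefsec with 0.567 and 0.401 and Gga2 with 0.271 and 0.0986. Their r with the replication score was 0.597 and 0.520 without the 4 lowest arrays.

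In the 2 animals that have both kinds of array, the suffix r array minus the plain one had a median over the 37 members of -0.36 log2 units in animal 14050 and -0.54 in animal 14352. Levels of all genes were also lower on suffix r arrays, with a median that averaged 6.03 over the 6 arrays. On the plain arrays of these animals that median was 6.52 and 6.38. The medians of all genes on the suffix r arrays of these 2 animals are not given here. Whether the members fell more than other genes was not tested.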
